A study of Mus musculus with 6 samples.

Results

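Paneth cells of the small intestine secrete many products besides the alpha defensins. Described here are 10 genes of that kind among the 24736 genes of the expression table, chosen by name from the lysozymes, proteases, ribonucleases and lectins of Paneth cells with a bacterial sensor and lipid-handling genes added: Lyz1, Lyz2, Mmp7, Ang4, Itln1, Mptx1, Nod2, Habp2, Pnliprp2 and Pla2g2a. RNA-seq had been performed on intestinal crypts freed with EDTA from the full length of the gut of 12-week-old male mice, and the table gives TPM, a level scaled to transcript length and to the total of the library. There were 3 WT libraries and 3 libraries labelled Mtg16 KO, described as biological triplicates. The study addressed what the co-repressor MTG16 does in crypt stem cells and their progeny. No treatment was given. The sample labels call the KO CRISPR-induced, whereas the study's methods describe Mtg16−/− mice received from another laboratory, and the strain is not given in the sources used here.

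Mtg16 is listed under its symbol Cbfa2t3 (chromosome 8, 122625136 to 122699332). WT replicates 1, 2 and 3 held 3.67, 6.69 and 4.52 TPM, and the replicates labelled Mtg16 KO held 4.62, 6.43 and 3.23 TPM. These ranges overlapped, and limma estimated a log2 difference of -0.06 ± 0.27 (standard error) with an adjusted p of 0.937, and -0.22 without WT replicate 1. A TPM sums over the whole gene and does not show where a deletion lies, so this level does not tell the genotypes apart. Every direction below therefore rests on the labels.

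Paneth cells sit at the crypt base between the stem cells and release granules into the crypt lumen. Lysozyme cuts the peptidoglycan of bacterial walls, matrilysin (encoded by Mmp7) activates the precursors of the alpha defensins, and angiogenin 4 is a ribonuclease with bactericidal activity. Intelectins bind microbial sugars, and NOD2 senses muramyl dipeptide, a fragment of the same peptidoglycan.

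Markers of the epithelium and of other tissues were summed first. The crypt epithelium list holds general epithelial genes such as Epcam and Vil1, so its sum does not tell crypts from villi. All 10 crypt epithelium markers were tested, with a summed TPM between 11887 and 13561 in the 6 libraries, and Krt19 was the most abundant of them. The 12 stromal markers summed to between 13.3 and 22.7 TPM, led by Vim, and 4 of them reached the mean of 1 TPM required for testing. The 18 myeloid markers summed to between 70.3 and 95.5 TPM, led by Lcp1, with S100a8 and S100a9 listed at 0 throughout.

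WT replicate 1 stood apart from the other libraries. The 20 enterocyte markers summed to 41818 TPM in WT replicate 1, against 14482 and 17921 in the other WT libraries and 15086, 8559 and 7503 in the libraries labelled Mtg16 KO. On the first principal component, which held 47.7% of the variance, this library lay at -47.7 and the others between -6.30 and 36.3. It also had the lowest TPM of the 6 libraries for 8 of the 10 genes. Log2 fold changes of the 10 genes are therefore given with and without it, as are those of some other genes and lists. The part of the enterocyte share in them was not tested.

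Of the 10 genes, 5 had a higher TPM in every library labelled Mtg16 KO than in any WT library: Lyz1, Ang4, Itln1, Mptx1 and Pnliprp2. The corresponding share was 9.94% among the 12268 tested genes. Nod2 was the 1 gene lower in every library labelled Mtg16 KO, where the share over tested genes was 11.1%. The remaining 4 genes, Lyz2, Mmp7, Habp2 and Pla2g2a, overlapped between the groups.

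None of the 10 genes passed the threshold of an adjusted p under 0.1 in limma's moderated test, for which 4 of 12268 genes (0.0326%) did. At an unadjusted p under 0.05, 5 of the 10 genes were higher (6.53% of all tested genes) and 0 were lower (8.05% of all tested genes). All 10 genes passed the filter of a mean TPM of 1. Their median log2 fold change was 0.71, where the median over all tested genes was -0.03. Without WT replicate 1 the median of the 10 genes was 0.45, and Pnliprp2 passed the threshold. In whole crypts, a larger number of Paneth cells, fewer cells of other types and more RNA per Paneth cell cannot be told apart.

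**Figure D1:**
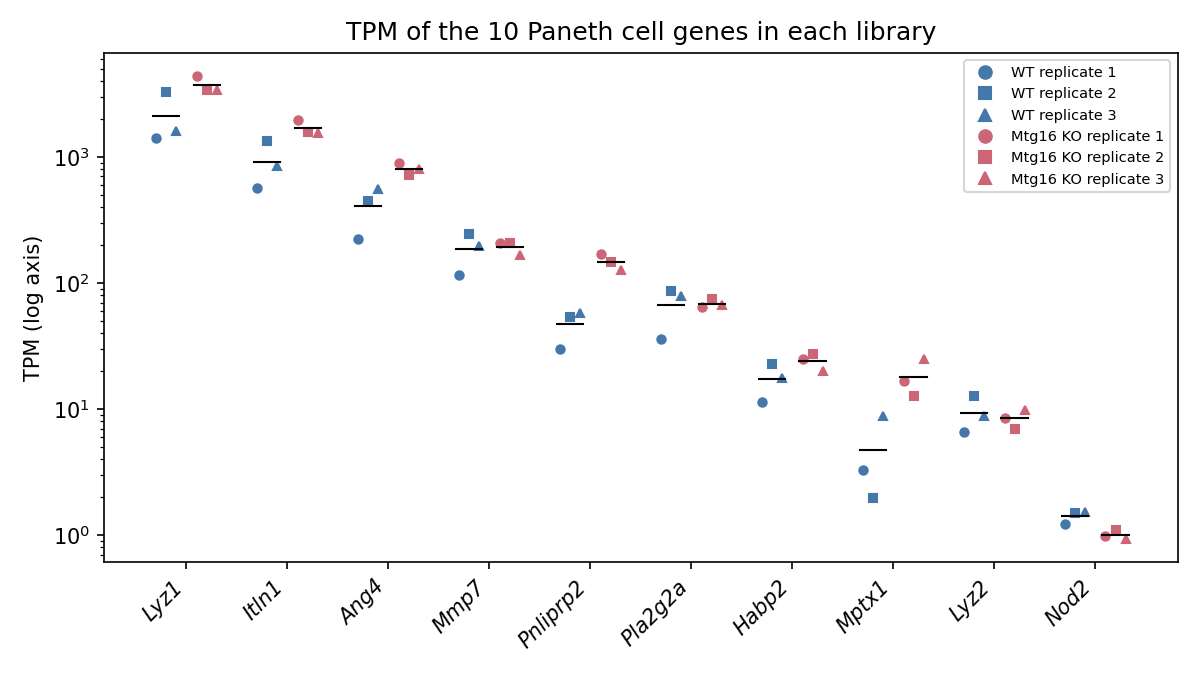
TPM of each of the 10 genes on a log axis, with 1 symbol per library and a line at the mean of each group. Lyz1 lies highest and Nod2 lowest, the libraries labelled Mtg16 KO lie above all WT libraries for Lyz1, Itln1, Ang4, Pnliprp2 and Mptx1, and WT replicate 1 is the lowest library for 8 genes.

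Levels differed widely among the genes. Lyz1 was the most abundant and ranked 20 by mean TPM among all 24736 genes, followed by Itln1 at rank 111 and Ang4 at rank 245. Together these 3 genes made up between 89.0% and 93.6% of the TPM summed over the 10 genes. Mmp7 (rank 742), Pnliprp2 (rank 1506) and Pla2g2a (rank 2181) formed an intermediate range, and Habp2, Mptx1, Lyz2 and Nod2 came last in that order. This order is over all 6 libraries. In WT alone Pla2g2a lay above Pnliprp2 and Lyz2 above Mptx1, and neighbours overlapped: the mean TPM of Pnliprp2 in WT was 47.1 ± 15.0 (SD, n = 3) and that of Pla2g2a was 67.2 ± 27.4 (SD, n = 3).

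The 10 genes together accounted for 0.240%, 0.551% and 0.337% of all TPM in the WT libraries. Under the Mtg16 KO label they accounted for 0.773%, 0.615% and 0.616%. Coefficients of variation were higher in WT for all 10 genes, such as 49.8% against 15.3% for Lyz1, but for 3 of them this rested on WT replicate 1. Without it the WT coefficient fell from 40.8% to 6.51% for Pla2g2a (7.56% under the Mtg16 KO label), from 32.0% to 4.36% for Pnliprp2 (14.3%) and from 11.9% to 1.87% for Nod2 (8.19%).

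Lyz1, the lysozyme gene of Paneth cells (chromosome 10, 117287795 to 117292868), stood at 1406, 3304 and 1593 TPM in WT. Under the Mtg16 KO label it stood at 4374, 3389 and 3387 TPM. The groups did not overlap, but WT replicate 2 came close to the lower libraries labelled Mtg16 KO. The means were 2101 ± 1046 and 3717 ± 569 (SD, n = 3 each), a 1.77-fold difference. On the log2 scale the difference was 0.92 ± 0.33 (standard error) with a limma adjusted p of 0.297, and 0.69 without WT replicate 1.

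Lyz2, the lysozyme gene used by macrophages and other myeloid cells (chromosome 10, 117277541 to 117282272), lies 5.52 kb from Lyz1 on the same strand. WT crypts gave 6.53, 12.7 and 8.76 TPM for it, and those labelled Mtg16 KO gave 8.46, 6.99 and 9.87 TPM. The groups overlapped, with WT libraries both lowest and highest. Its log2 difference of -0.10 ± 0.24 (standard error) had a limma adjusted p of 0.871. It was -0.30 without WT replicate 1 and turned positive without WT replicate 2 (0.13) or without Mtg16 KO replicate 2 (0.02).

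Lyz1 exceeded Lyz2 by 215-, 261- and 182-fold in the WT libraries. Under the Mtg16 KO label it exceeded Lyz2 by 517-, 485- and 343-fold, above every WT value. The mean log2 ratio differed by 1.02. Exact permutation of the libraries gave p = 0.1 (two-sided), and 3 libraries against 3 cannot give less. The difference was also 1.02 without WT replicate 1.

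The lysozyme transcripts are alike enough to share reads. Lyz1-201 (1263 bases) and Lyz2-201 (1316 bases) of GENCODE were identical at 1211 of 1262 aligned bases, or 96.0%. Of all stretches of 50 bases in the Lyz1 transcript, 16.1% occurred unchanged in Lyz2, and of stretches of 100 bases 2.06%. Reads from such stretches cannot be assigned to 1 gene by sequence, so the low Lyz2 values beside the far higher Lyz1 values are uncertain. The read length is not given in the sources used here.

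The resemblance continues upstream of the transcription starts. The 300-base windows around the starts (RefSeq, GRCm38.p6) were identical at 249 of 298 aligned bases, or 83.6%, and within the 100 bases next to the start 8 bases differed. The 150 bases that precede each start are shown because genes so different in level share most of this sequence. Capitals mark bases with no identical partner in the alignment, and both stretches lie on the minus strand, at chr10:117292869-117293018 for Lyz1 and chr10:117282273-117282422 for Lyz2.
Lyz1: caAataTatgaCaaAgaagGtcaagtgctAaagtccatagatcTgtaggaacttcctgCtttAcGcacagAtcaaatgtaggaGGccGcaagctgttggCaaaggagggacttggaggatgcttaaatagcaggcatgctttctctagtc
Lyz2: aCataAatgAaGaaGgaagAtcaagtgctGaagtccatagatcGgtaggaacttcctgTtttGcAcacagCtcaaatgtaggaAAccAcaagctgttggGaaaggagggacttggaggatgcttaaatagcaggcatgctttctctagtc

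Mmp7, which encodes matrilysin (chromosome 9, 7692090 to 7699585), was measured at 115, 247 and 197 TPM in WT. With the Mtg16 KO label the levels were 208, 209 and 168 TPM. The WT libraries held both the lowest and the highest level, and the groups overlapped. Limma estimated a log2 difference of 0.12 ± 0.26 (standard error) with an adjusted p of 0.847, and the difference was -0.19 without WT replicate 1.

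Ang4, which encodes angiogenin 4 (chromosome 14, 51763892 to 51773590), reached 223, 448 and 556 TPM in WT. Mtg16 KO replicates 1, 2 and 3 reached 897, 715 and 803 TPM, each above the WT range. The means were 409 ± 170 and 805 ± 91.5 (SD, n = 3 each), a 1.97-fold difference. On the log2 scale the difference was 1.07 ± 0.31 (standard error) with a limma adjusted p of 0.263, and 0.68 without WT replicate 1.

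Among the other angiogenin genes, Ang, which is expressed in many tissues, overlapped between the groups. WT libraries held 35.3, 30.0 and 31.7 TPM of it, and those labelled Mtg16 KO held 37.6, 35.8 and 33.0 TPM. Ang2, Ang3, Ang5 and Ang6 were listed at 0 in every library. Ang4-201 and Ang-201 were identical at 86.6% of aligned bases, with no shared stretch of 50 bases. Sharing of reads between Ang4 and Ang2, Ang3, Ang5 or Ang6 was not examined.

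Itln1, which encodes an intelectin (chromosome 1, 171518123 to 171535325), stood at 569.7, 1327 and 854 TPM in WT. Under the Mtg16 KO label it stood at 1964, 1565 and 1552 TPM. All of these exceeded the WT range, whose upper end was WT replicate 2, as for Lyz1. The means were 917 ± 382 and 1693 ± 234 (SD, n = 3 each), a 1.85-fold difference. Limma estimated a log2 difference of 0.96 ± 0.30 (standard error) with an adjusted p of 0.272, and the difference was 0.66 without WT replicate 1.

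Mptx1, a pentraxin gene named for mucosal expression (chromosome 1, 174330518 to 174332877), was low in WT, at 3.29, 1.96 and 8.90 TPM. Mtg16 KO replicates 1, 2 and 3 held 16.6, 12.8 and 24.8 TPM, with no overlap. Here WT replicate 2 was the lowest library, unlike for Lyz1 and Itln1. Its log2 difference of 1.88 ± 0.43 (standard error) was the highest among the 10 genes over all 6 libraries, with a limma adjusted p of 0.225. The difference was 1.77 without WT replicate 1. Pnliprp2 lay above Mptx1 without WT replicate 2 (1.8 against 1.5) and without Mtg16 KO replicate 3 (1.78 against 1.64). It also did so with array weights from limma (1.45 against 1.21). Because 1 TPM was added before the logarithm was taken, fold changes of genes at such low levels are understated, and the means of 4.72 and 18.1 TPM differed 3.83-fold.

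Mptx2, a close relative of Mptx1 on the same chromosome, was the more abundant pentraxin by between 16.5- and 196-fold across the 6 libraries. Mptx2 levels were 165, 385 and 229 TPM in WT against 557, 338 and 409.9 TPM under the Mtg16 KO label, and the groups overlapped. Mptx1-201 and Mptx2-201 were identical at 734 of 794 aligned bases, or 92.4%. Of all stretches of 50 bases in the Mptx1 transcript, 17.9% occurred unchanged in Mptx2, so the low Mptx1 values are uncertain in the same way as those of Lyz2.

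The windows around the Mptx1 and Mptx2 starts were identical at 247 of 278 aligned bases, or 88.8%. The 150 bases before each start are shown to compare with the lysozyme copies, with capitals marking bases without an identical partner. Mptx1 lies on the plus strand (chr1:174330368-174330517) and Mptx2 on the minus strand (chr1:173277757-173277906), and the sequences come from RefSeq (GRCm38.p6).
Mptx1: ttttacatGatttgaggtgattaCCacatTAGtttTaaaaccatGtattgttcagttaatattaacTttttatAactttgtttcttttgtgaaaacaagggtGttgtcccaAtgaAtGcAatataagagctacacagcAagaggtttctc
Mptx2: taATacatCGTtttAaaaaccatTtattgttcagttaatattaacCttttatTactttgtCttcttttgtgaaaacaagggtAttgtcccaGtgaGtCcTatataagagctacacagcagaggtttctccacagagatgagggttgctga

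Nod2, the muramyl dipeptide sensor (chromosome 8, 88647315 to 88688474), was measured at 1.22, 1.49 and 1.53 TPM in WT. With the Mtg16 KO label the levels were 0.98, 1.09 and 0.93 TPM, below every WT library. Its log2 difference of -0.27 ± 0.21 (standard error) had a limma adjusted p of 0.547, and it was -0.33 without WT replicate 1. At about 1 TPM this gene lay just above the filter.

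Of 21 genes listed for the NOD2 signalling path, 20 were tested and 0 passed the threshold. Their median log2 fold change was -0.05 (0.03 without WT replicate 1). Without overlap, 4 were lower (11.1% of all tested genes) and 1 was higher (9.94%). At an unadjusted p under 0.05 from limma, 2 were lower (8.05% of all tested genes). The most abundant was Nfkbia, an inhibitor of NF-kappaB, with 154, 122 and 93.9 TPM in WT and 86.1, 91.0 and 67.7 TPM in the libraries labelled Mtg16 KO (log2 fold change -0.57, limma adjusted p = 0.291). Erbin had a log2 fold change of 0.12 (0.34 without WT replicate 1) and Nfkb1 one of -0.14.

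Pnliprp2, which encodes a lipase related to pancreatic lipase (chromosome 19, 58759723 to 58777534), reached 29.8, 54.0 and 57.4 TPM in WT. Mtg16 KO replicates 1, 2 and 3 reached 169, 147 and 127 TPM. The gap between the groups was wider than the range within either. The means were 47.1 ± 15.0 and 148 ± 21.1 (SD, n = 3 each), a 3.14-fold difference. Limma estimated a log2 difference of 1.68 ± 0.25 (standard error) with an adjusted p of 0.104, just outside the threshold. Without WT replicate 1 the difference was 1.38 and the adjusted p from limma 0.0554.

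Pancreatic lipase genes were examined beside it. The 17 pancreatic acinar markers summed to 66.5, 29.5 and 12.8 TPM in WT and to 22.1, 14.1 and 13.9 TPM in the libraries labelled Mtg16 KO, and Cela1 was the most abundant. Pnlip, the pancreatic lipase gene itself, was at 4.82, 1.65 and 0 TPM in WT and at 0.43, 0.15 and 0 TPM in the libraries labelled Mtg16 KO. Pnliprp1, a relative of Pnliprp2 on the same list, was at 2.21, 1.06 and 0.83 TPM in WT and at 1.68, 2.28 and 2.62 TPM under the Mtg16 KO label, with overlap (log2 fold change 0.46, or 0.71 without WT replicate 1). The acinar sum was highest where Pnliprp2 was lowest, in WT replicate 1, whereas under the Mtg16 KO label both were highest in replicate 1 and lowest in replicate 3. Clps, which encodes the lipase cofactor colipase, stood at 48.9, 123 and 81.7 TPM in WT and at 216, 158 and 199.7 TPM under the Mtg16 KO label, without overlap (log2 fold change 1.25, limma adjusted p = 0.237).

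Pla2g2a, which encodes a secreted phospholipase that attacks bacterial membranes (chromosome 4, 138831857 to 138835189), stood at 35.8, 86.7 and 79.1 TPM in WT. Under the Mtg16 KO label it stood at 64.2, 74.15 and 66.7 TPM, inside the WT range. On the log2 scale the difference was 0.12 ± 0.30 (standard error) with a limma adjusted p of 0.874, and -0.28 without WT replicate 1. GENCODE lists the gene as a polymorphic pseudogene, since some mouse strains carry a disrupted copy, and the allele of these mice was not examined.

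Habp2, which encodes a hyaluronan-binding serine protease (chromosome 19, 56287109 to 56320820), was measured at 11.4, 22.7 and 17.7 TPM in WT. With the Mtg16 KO label the levels were 25.0, 27.4 and 19.9 TPM, and the groups overlapped through WT replicate 2 and Mtg16 KO replicate 3. Its log2 difference of 0.50 ± 0.24 (standard error) had a limma adjusted p of 0.381, and it was 0.24 without WT replicate 1.

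**Figure D2:**
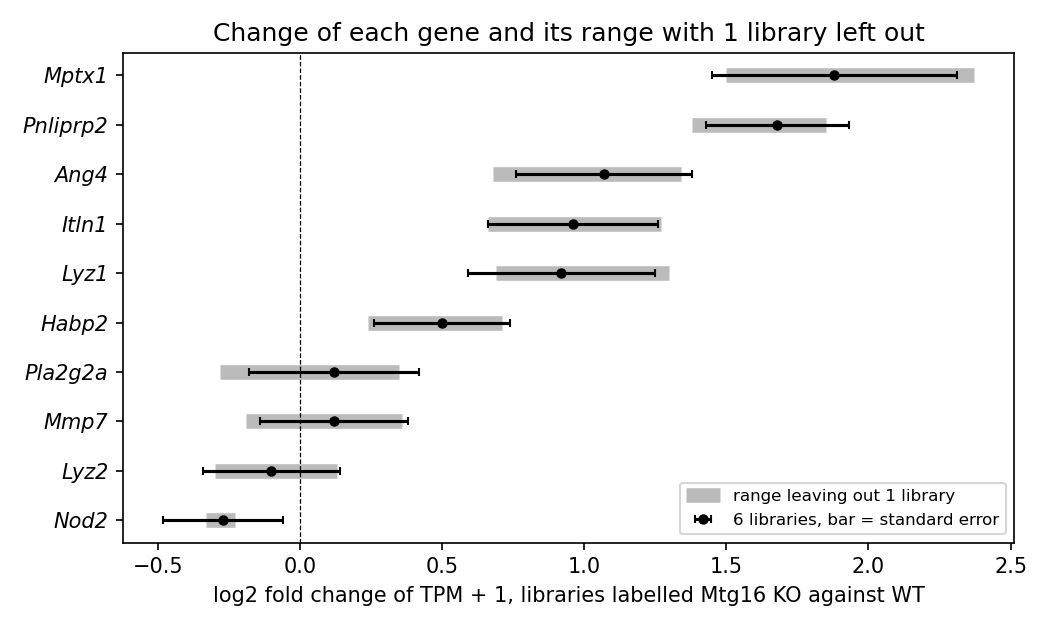
Log2 fold change of TPM + 1 between the libraries labelled Mtg16 KO and WT for each gene, with the standard error as a black bar and the range obtained by leaving out 1 library as a grey bar. The grey range crosses 0 for Pla2g2a (-0.28 to 0.35), Mmp7 (-0.19 to 0.36) and Lyz2 (-0.30 to 0.13), and lies between 1.38 and 1.85 for Pnliprp2.

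The alpha defensins, also products of Paneth cells, served as the reference within the same libraries. TPM over the 27 symbols starting with Defa summed to 1.68%, 4.43% and 2.18% of all TPM in WT and to 6.93%, 5.18% and 5.03% in the libraries labelled Mtg16 KO. Of 22 tested symbols, 9 were higher without overlap (9.94% of all tested genes) and 0 passed the threshold. The median log2 fold change was 1.05 (0.80 without WT replicate 1). Near-identical defensin copies share reads, which is why their sum was used.

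The log2 ratio of each gene to this sum was then compared between the groups. The sum itself was higher in every library labelled Mtg16 KO, by 1.16 on the log2 scale (0.86 without WT replicate 1), so a gene of equal TPM in both groups would have a ratio lower by 1.16. Of the 12110 tested genes listed above 0 in all libraries, 56.5% had a lower ratio without overlap and 0.0248% a higher one, with a median difference of -1.19. A lower ratio therefore does not set a gene apart by itself. For 5 of the 10 genes the ratio was lower in every library labelled Mtg16 KO: Nod2 by 1.65, Lyz2 by 1.26, Mmp7 by 1.03, Pla2g2a by 1.03 and Lyz1 by 0.24 on the log2 scale. Each of these had an exact permutation p of 0.1 (two-sided), the floor for this group size, so that no such ratio can reach 0.05. Lyz2, Mmp7 and Pla2g2a lay near the value of a gene of equal TPM, whereas Lyz1 lay nearer to the alpha defensins. For Lyz1 the ratio was -3.58, -3.74 and -3.78 in WT and -3.99, -3.93 and -3.89 in the libraries labelled Mtg16 KO, a small shift with little spread. For Mmp7 it was -7.19, -7.49 and -6.79 in WT and -8.38, -7.95 and -8.23 in the libraries labelled Mtg16 KO.

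The ratios of the other 5 genes overlapped between the groups. The differences were -0.63 for Habp2, -0.20 for Itln1 and -0.09 for Ang4, and without WT replicate 3 those of Itln1 and Ang4 were -0.10 and 0.29. They were 0.54 for Pnliprp2 and 1.02 for Mptx1, for which the exact permutation test gave p = 0.3 and p = 0.4. Without WT replicate 2 these became 0.27 and 0.12, and without WT replicate 3 they became 0.82 and 1.73. Pnliprp2 lay at -9.14, -9.68 and -8.57 in WT and at -8.68, -8.46 and -8.63 in the libraries labelled Mtg16 KO, so that WT replicate 3 reached into the other group.

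**Figure D3:**
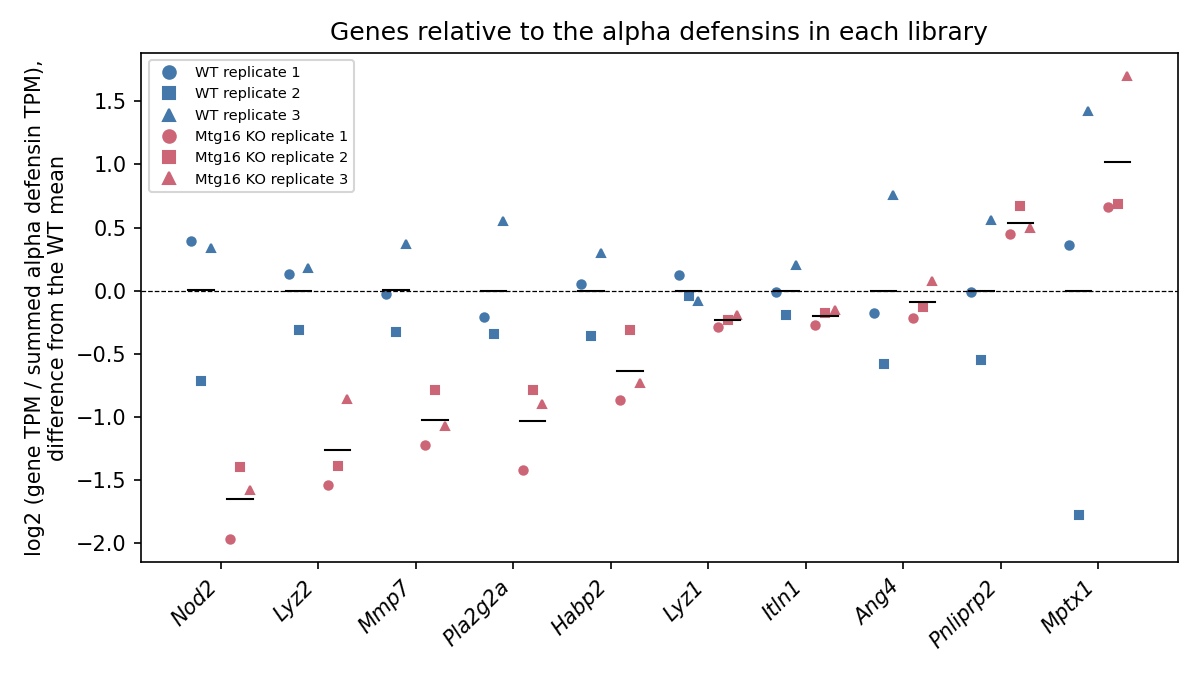
Log2 ratio of each gene to the summed alpha defensin TPM, drawn as the difference from the WT mean, with 1 symbol per library and a line at each group mean. The libraries labelled Mtg16 KO lie below all WT libraries for Nod2, Lyz2, Mmp7, Pla2g2a and Lyz1, by 1.65, 1.26, 1.03, 1.03 and 0.24 on average, where a gene of equal TPM would lie lower by 1.16.

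Across the 6 libraries the genes fell into unlike patterns. The measure was the root mean square difference between the deviations of log2(TPM + 1) from each gene's mean. Lyz1 and Itln1 were the closest pair of the 10 genes (0.139), followed by Mmp7 and Pla2g2a (0.147), and Mptx1 and Nod2 were the farthest apart (1.222).

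Among all tested genes outside the 10, those nearest to Lyz1 were Defa3 (0.076), Gm7849 (0.082) and Defa35 (0.084). Nearest to Itln1 were Gm14851 (0.061), Defa17 (0.069) and Defa31 (0.079). For Mmp7 they were Noxa1 (0.098), D930020B18Rik (0.114) and the secretory lineage factor gene Spdef (0.116). No symbol starting with Defa was among the nearest 3 of any gene besides Lyz1 and Itln1. The beta defensin gene Defb37 (0.198) was nearest to Pnliprp2. Whether neighbours under other symbols, such as Gm7849, Gm14851 and Gm15293, are defensin genes was not examined.

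The nearest genes to Pnliprp2 after Defb37 were Insrr (0.296) and Dmpk (0.319), and those to Ang4 were 2010009K17Rik (0.204), Cln6 (0.206) and Cep112 (0.222). Mptx1 had no close neighbour, with Gm15293 (0.444), the metallothionein gene Mt1 (0.528) and Gm15706 (0.532) nearest. Nod2, whose range was narrow, was followed by Mlec (0.029), Wrap53 (0.030) and Abcf1 (0.039). Lyz2 had Hist1h2an (0.096), Uqcc2 (0.109) and Nr2c2ap (0.109), Habp2 had Fam46c (0.052), Tln2 (0.088) and Gm3435 (0.090), and Pla2g2a had Fpgs (0.083), Qtrt1 (0.105) and Pop1 (0.107).

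Other secreted products of Paneth cells gave a mixed picture. Of 17 listed, 13 were tested, 0 passed the threshold and the median log2 fold change was 0.53. Without overlap, 2 were higher, Clps and Gm14851 (9.94% of all tested genes). Whether genes such as Gm14851 and Gm7849, whose symbols do not start with Defa, are defensin genes was not examined. The most abundant was Reg3b, a lectin that binds bacterial walls and is also made by enterocytes, with 8751, 6513 and 5426 TPM in WT and 6099, 3254 and 3979 TPM in the libraries labelled Mtg16 KO (log2 fold change -0.66). Gm7849 had a log2 fold change of 0.90 and Reg3g one of -0.41, both with overlapping groups, and without WT replicate 1 they were at 0.60 and -0.26.

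Genes related to the 10 by family were mostly at low levels. Of 27 relatives, 12 were tested, 0 passed the threshold and 2 were higher without overlap (9.94% of all tested genes). Their median log2 fold change was 0.13 (0.01 without WT replicate 1). Rnase4, a ribonuclease gene whose promoter region is shared with Ang, stood at 47.2, 48.6 and 44.8 TPM in WT and at 70.3, 73.2 and 77.6 TPM under the Mtg16 KO label (log2 fold change 0.64, limma adjusted p = 0.141). Mptx2 had a log2 fold change of 0.80 (0.52 without WT replicate 1) and Ang one of 0.13.

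Genes that direct or maintain Paneth cells showed no common direction. All 19 were tested and 0 passed the threshold. Without overlap, 2 were higher (9.94% of all tested genes) and 2 lower (11.1%). The median log2 fold change was 0.03 (-0.10 without WT replicate 1). Sox9, a transcription factor required for Paneth cells, stood at 15.8, 25.6 and 30.7 TPM in WT and at 36.4, 51.7 and 41.6 TPM under the Mtg16 KO label, a log2 fold change of 0.85 (limma adjusted p = 0.263), and was chosen for mention after its values were seen. The most abundant were Xbp1, Rab7 and Fzd5, with log2 fold changes of -0.13, -0.13 and 0.17.

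Markers of other cells and gut regions were also compared between the groups, and their part in the values of the 10 genes was not tested. Over all tested genes, 9.94% were higher and 11.1% lower without overlap. Of the 20 enterocyte markers, 0 passed the threshold, 7 were lower without overlap and the median log2 fold change was -1.08, or -0.67 without WT replicate 1, with Apoa1 the most abundant. The 8 markers of the proximal small intestine had a median of -1.13 (-0.71 without that library), with 4 lower without overlap, and Fabp1 was the most abundant. The 7 tested of 9 ileum markers had a median of -0.33 (-0.11 without it) with all groups overlapping, and Fabp6, the most abundant, stood at 1168, 1926 and 735 TPM in WT and at 2056, 1880.4 and 869 TPM in the libraries labelled Mtg16 KO.

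The 11 stem cell markers had a median log2 fold change of 0.46 (0.31 without WT replicate 1), with 6 higher without overlap, and Olfm4 was the most abundant. The 15 goblet cell markers had a median of 0.08 (-0.01 without WT replicate 1), with 2 higher and 2 lower without overlap, and the most abundant, Zg16, had a log2 fold change of -1.28. The 11 tested myeloid markers had a median of -0.13 with 2 lower without overlap (C1qc and Tyrobp), the 7 tested acinar markers one of -1.08 (-0.46 without WT replicate 1) and the 4 tested stromal markers one of 0.16 (0.25). The 7 tested of 10 colon markers had a median of -0.21 (-0.06) with 2 higher and 1 lower without overlap, and Car4 was the most abundant. The crypt epithelium markers had a median of 0.01 (0.03) with 2 higher without overlap. No gene of these lists passed the threshold. With a replicate block, which is not part of the stated design, 385 of all 12268 tested genes passed as higher and 816 as lower. Of the markers, 19 enterocyte and 6 proximal ones then passed as lower and 5 stem cell ones as higher. Fabp1 and Lct stand on both the enterocyte and the proximal list. Under that block 1 ileum marker passed as higher and 3 as lower, and no acinar or stromal marker passed. The goblet and colon lists each had 1 higher and 2 lower. The crypt epithelium list had 1 higher and 1 lower, and 2 myeloid markers were lower.

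Short motifs were searched in the 250 bases upstream of the starts of the 9 genes with a RefSeq window, on both strands. CTTTGA, the core recognised by TCF factors of the Wnt pathway, occurred in Mptx1 and Pnliprp2, 2 of 9 windows, and in 13.8% of all 32851 windows of that length. CAGATG, an E-box form, occurred in Ang4 and Mptx1, 2 of 9 windows, and in 14.4% of all windows. CAGCTG, another E-box form, occurred in 0 of 9 windows and in 13.0% of all windows. These are matches of letters only, and the motifs do not overlap in these windows.

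The upstream sequences of Ang4 and Pnliprp2 are shown because both genes lay higher in all libraries labelled Mtg16 KO and each holds 1 motif. The 250 bases before the start are given from RefSeq (GRCm38.p6), with the motif in capitals, for Ang4 on the minus strand (chr14:51773591-51773840) and Pnliprp2 on the plus strand (chr19:58759473-58759722).
Ang4: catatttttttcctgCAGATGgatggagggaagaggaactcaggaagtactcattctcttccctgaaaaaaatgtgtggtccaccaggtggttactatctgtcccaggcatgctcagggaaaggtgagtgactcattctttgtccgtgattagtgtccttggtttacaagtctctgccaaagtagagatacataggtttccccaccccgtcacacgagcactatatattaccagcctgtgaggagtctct
Pnliprp2: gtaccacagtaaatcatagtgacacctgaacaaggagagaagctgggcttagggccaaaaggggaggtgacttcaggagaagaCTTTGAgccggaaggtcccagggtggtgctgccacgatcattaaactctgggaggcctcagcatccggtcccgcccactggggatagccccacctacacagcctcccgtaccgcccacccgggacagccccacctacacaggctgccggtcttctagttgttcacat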

How the data were processed

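The authors prepared ribosomal RNA-depleted libraries from crypt RNA and deposited 1 table of gene-level TPM for all 6 libraries. The submitters' processing notes name cutadapt 1.9.1, STAR 2.5.2a, RSEM 1.3.0 and DESeq2 1.12.3 with build mm10, and the authors' own test with the last of these was not used. TPM keeps no sequencing depth, so the depth of each library is unknown and no counting intervals are given.

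The deposited TPM values were analysed as log2(TPM + 1). The filter kept the 12268 of 24736 genes whose TPM averaged 1 or more, and these were tested with limma 3.58.1 in R 4.3.3 (lmFit and eBayes with an intensity trend, two-sided), with Benjamini-Hochberg adjustment over all tested genes and a threshold of 0.1. The code was tested on simulated data. Ratios were compared by exact permutation over libraries. Their adjustment over the 10 genes alone had been planned and is not reported, because these genes were not chosen independently of the data. The 10 genes and all gene lists were chosen with earlier results of these data known.

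The text names the 10 genes, Cbfa2t3, the most abundant genes of each list where none passed the threshold, and for each of the 10 the 3 tested genes of most similar pattern. Other genes named were chosen after their values were seen. Positions and upstream sequences are from RefSeq (GRCm38.p6, the same assembly as mm10) and transcripts from GENCODE vM21, compared by global alignment with Biopython 1.88. All 10 symbols had a RefSeq position, and 9 had an upstream window. Alternatives covered the pseudocount, the filter, the scaling, the variance model, library weights, a replicate block, the threshold, summed copies and each library left out.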

Additional observations from a re-analysis of the deposited data

How the results depend on the processing

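Of 12268 tested genes 4 passed the threshold, 2 higher and 2 lower, and none of the 10 Paneth cell genes did. The count over all genes became 15 (5 higher) among the 10062 genes with a mean TPM of 5, where 1 of the Paneth cell genes, Pnliprp2, passed (limma adjusted p = 0.0998) and Nod2 was too low to be tested. It became 20 (6 higher) with robust moderation, again with 1, Pnliprp2 (limma adjusted p = 0.0967), and 855 (421 higher) with array weights, with 2, Pnliprp2 (limma adjusted p = 0.00865) and Itln1 (limma adjusted p = 0.0853), while the log2 fold change of Ang4 was 0.64 instead of 1.07 and that of Mptx1 1.21 instead of 1.88. It was 1 (1 higher) with median-ratio rescaling and 1 (1 higher) with quantile normalization, and 0 without the filter, without the intensity trend, after rescaling without the Paneth cell genes in the total, and at an adjusted p under 0.05. With a pseudocount of 0.1 it was 4, with Nod2 at -0.46 instead of -0.27, and no Paneth cell gene passed there, nor with the copies summed. Over these settings, each library left out and the block below, the adjusted p of Pnliprp2 from limma ranged from 0.00865 to 0.571, that of Itln1 from 0.0784 to 0.586, that of Ang4 from 0.0609 to 0.586 and that of Mptx1 from 0.00545 to 0.586. No scaling moved the median of all genes by more than 0.1. Leaving out each library in turn gave from 0 (without Mtg16 KO replicate 3) to 20 (without WT replicate 1) genes past the threshold, and from 0 to 1 of the Paneth cell genes. The median log2 fold change of the 10 genes ranged from 0.45 to 0.95 in this way, the median log2 ratio to the alpha defensins from -0.60 to -0.37 around -0.44 (for this ratio alone among these, leaving out each library was chosen after seeing the data), and the Lyz1 to Lyz2 log2 ratio from 0.90 to 1.21. Directions reversed for Lyz2 (range -0.30 to 0.13), Mmp7 (-0.19 to 0.36), Pla2g2a (-0.28 to 0.35, and -0.12 with array weights) and the ratio of Ang4 to the alpha defensins (-0.38 to 0.29). No direction of Lyz1, Ang4, Itln1, Mptx1, Nod2, Habp2 or Pnliprp2 reversed under any of these settings where they were tested, and the cause of the differences was not tested. Without WT replicate 1, a setting applied to the gene lists after seeing the data, the median turned for the NOD2 path (-0.05 to 0.03), the Paneth cell regulators (0.03 to -0.10) and the goblet cell markers (0.08 to -0.01). Whether the replicate numbers of the labels pair the libraries is not stated. Deviations from the group means correlated at 0.429, 0.0753 and 0.237 for the same numbers. Pairing was taken to need over 0.1 for each, which replicate 2 did not reach. Of the 6 libraries 5 correlated best with their own number, and WT replicate 2 correlated best with Mtg16 KO replicate 3 (0.198). This is a hint from the data and not part of the design. With a replicate block 1201 genes passed (385 higher), and 4 of the Paneth cell genes, with limma adjusted p of 0.0609 for Ang4, 0.0784 for Itln1, 0.00545 for Mptx1 and 0.0123 for Pnliprp2. Sequencing depth is unknown, so the counting error of low genes such as Nod2, Lyz2 and Mptx1 cannot be given.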

Other observations

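Single libraries differed in some genes of the marker lists. Amy2a5, a pancreatic amylase gene, was at 17.8 and 6.06 TPM in WT replicates 1 and 2 and at 0 TPM in WT replicate 3, and at 3.16, 0 and 0.12 TPM under the Mtg16 KO label. Car1, a colon marker, was listed above 0 only in WT replicate 2 (3.58 TPM) and Mtg16 KO replicate 2 (11.9 TPM). In other genes the groups did not overlap. Sval1, another colon marker, was at 1.18, 1.29 and 0 TPM in WT and at 7.33, 5.72 and 6.81 TPM under the Mtg16 KO label (log2 fold change 2.15, limma adjusted p = 0.104). Tnfaip3, an inhibitor of NF-kappaB from the NOD2 list, was at 40.1, 23.3 and 16.9 TPM in WT and at 16.7, 13.7 and 9.08 TPM under the Mtg16 KO label (log2 fold change -0.92, or -0.60 without WT replicate 1, limma adjusted p = 0.291). These genes were chosen after their values were seen.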
